A study of Mus musculus with 12 samples.

Results

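The actin genes of the mouse are 6: Actb and Actg1, which encode the cytoplasmic β- and γ-actins, Acta1 and Actc1, which encode the skeletal and cardiac muscle α-actins, and Acta2 and Actg2, which encode the smooth muscle α- and γ-actins. They were examined together in mouse neural progenitor cells (NPCs) in which the serum response factor pathway had been raised or Actb had been knocked down. Every array probe whose RefSeq accession belonged to one of these genes was taken, which gave 10 probes for 6 of 21154 named genes on the array, out of 55681 probes in all. Actg1 was represented by 5 probes and each other gene by 1.

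Actin exists in cells as monomers and as filaments, and the isoforms differ at few residues. The transcription factor Srf (serum response factor) binds CArG boxes, and Mkl1 (also named Mrtfa) is its cofactor. Monomeric actin holds Mkl1 away from Srf, and most actin genes are known targets of the pair, so that actin is both a regulator and a product of the pathway. Cytoplasmic actins are made in nearly every cell, whereas muscle isoforms are usually scarce outside muscle and contractile stromal cells.

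The cells had been differentiated in vitro and were kept on gelatin with EGF and bFGF. Total RNA was labelled with Cy3 and hybridized to 12 one-colour Agilent arrays, 2 per group. In the overexpression experiment the cells carried retroviral EGFP (the control), Mkl1 or Srf. In the knockdown experiment a retrovirus delivered a short hairpin RNA, which targeted EGFP in the control (shEGFP) and Actb in the groups shActb_1 and shActb_2. In the study's methods the overexpression vectors hold an open reading frame and the hairpins are made from an H1 promoter. Its molecular analyses used either of a pair of NPC lines. NSEB5-2C was made from embryonic stem cells with a drug-resistance gene in Oct4, and N31 from induced pluripotent stem cells derived from NSEB5-2C, so that N31 also carries doxycycline-inducible reprogramming factors. The labels do not say which of them was put on these arrays. The study describes its knockdown array duplicates as technical, and nothing says that the others came from separate cultures, so p-values measure the spread between arrays.

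Between 33008 and 40359 probes per array (59.3% to 72.5%) were well above background, and no spot was saturated. The arrays labelled EGFP, Mkl1 and Srf lay on slide 1, with EGFP in another row, shEGFP and shActb_1 lay on slide 2, and shActb_2 lay alone on slide 3. Slide and hairpin therefore cannot be told apart for shActb_2. Of 12 neural progenitor markers, 10 or 11 were well above background in every group, and so were 6 or 7 of 7 fibroblast markers. Both Srf probes read lower on the arrays labelled Srf than in EGFP (-2.46, SE 0.06, and -1.40, SE 0.13, on the log2 scale). This goes against that label only if the probes read the transgene, which holds an open reading frame alone. The position of these probes with respect to the transgene was not determined. Directions taken from the arrays labelled Srf, as they are called for this reason, are limited by this. The 2 Mkl1 probes did not pass the test on the arrays labelled Mkl1 (differences of 0.20 and 0.17, adjusted p = 0.120 and 0.312, limma). The position of the Mkl1 probes was not determined either.

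Stretches of 250 bases before the RefSeq transcription start sites were read for Actg1, Acta1, Acta2 and Actc1 (GRCm38.p6). They are shown for their CArG boxes, the sites that Srf binds. A CArG box is CC, then 6 bases that are each A or T, then GG. Capitals mark exact matches and matches with 1 letter off, and each line reads 5′ to 3′ on the minus strand, which is the strand of all 4 genes. The windows are chr11:120348496-120348745 for Actg1, chr8:123894776-123895025 for Acta1, chr19:34255374-34255623 for Acta2 and chr2:114052876-114053125 for Actc1.
Actg1: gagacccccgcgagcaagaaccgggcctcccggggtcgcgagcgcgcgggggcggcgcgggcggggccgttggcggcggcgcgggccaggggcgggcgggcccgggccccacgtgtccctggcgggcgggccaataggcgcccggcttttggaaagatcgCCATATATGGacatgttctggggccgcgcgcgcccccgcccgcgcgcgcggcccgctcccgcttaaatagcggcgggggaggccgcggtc
Acta1: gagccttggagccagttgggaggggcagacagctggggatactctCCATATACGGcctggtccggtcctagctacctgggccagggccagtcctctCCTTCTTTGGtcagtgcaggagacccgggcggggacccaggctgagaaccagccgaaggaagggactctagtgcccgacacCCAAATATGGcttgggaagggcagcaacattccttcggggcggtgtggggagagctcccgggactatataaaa
Acta2: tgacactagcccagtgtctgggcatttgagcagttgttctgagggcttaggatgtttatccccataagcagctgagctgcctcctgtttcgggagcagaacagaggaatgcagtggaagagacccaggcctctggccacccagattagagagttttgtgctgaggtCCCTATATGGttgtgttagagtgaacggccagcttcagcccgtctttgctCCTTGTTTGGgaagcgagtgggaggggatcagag
Actc1: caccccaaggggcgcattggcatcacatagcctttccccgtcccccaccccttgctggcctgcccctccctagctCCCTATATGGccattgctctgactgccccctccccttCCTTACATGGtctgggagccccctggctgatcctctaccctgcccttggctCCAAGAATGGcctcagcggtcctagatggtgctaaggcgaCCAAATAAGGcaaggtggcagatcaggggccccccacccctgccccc

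An exact CArG box was found in 482 of 32851 windows of this length (1.47%), and a box with at most 1 letter off in 6117 (18.6%). Actg1 held 1 exact box, at -90 to -81 from its start site, and no near match. Acta1 held 1 exact box at -73 to -64 and near matches starting at -205 and -154. Actc1 held 1 exact box at -47 to -38 and 3 near matches. Acta2 held no exact box in this window and near matches at -84 to -75 and -34 to -25. The letters TATAAA were present on either strand in 12.4% of windows and, of the 4 genes, in Acta1. These matches are descriptions of sequence, and binding was not measured on the arrays.

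**Figure D1:**
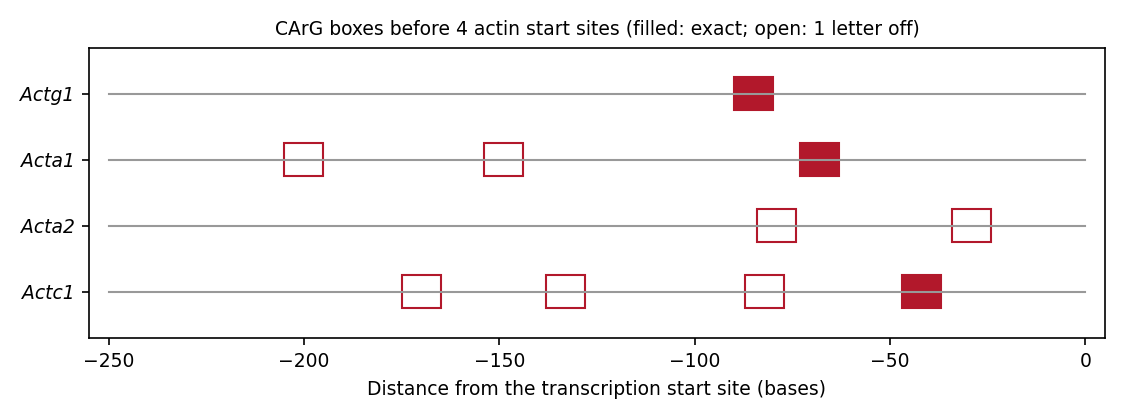
CArG boxes in the 250 bases before the start sites of Actg1, Acta1, Acta2 and Actc1, with the distance from the start site in bases on the x axis; filled boxes are exact matches and open boxes have 1 letter off. Actg1, Acta1 and Actc1 each hold 1 exact box, with first bases between -90 and -47, and Acta2 holds 2 near matches.

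Actb was the target of the hairpins and is given first. Levels here and below are log2 signals minus the 75th percentile of the same array, so that a level of 0 equals that percentile, and a level is set only against the same probe on other arrays. The Actb probe (A_55_P2112737, NM_007393) read 8.74 and 8.75 on the shEGFP arrays, 8.23 and 8.20 with shActb_1, and 8.12 and 8.06 with shActb_2. All 4 hairpin arrays lay below both control arrays. Actb fell by 0.53 with shActb_1 (95% interval -0.65 to -0.41, adjusted p = 0.00129, limma) and by 0.65 with shActb_2 (-0.78 to -0.53, adjusted p = 0.000197, limma), which are 1.45-fold and 1.57-fold differences. The remaining signal was still bright, and across the 12 arrays the spot ran from 40.2% to 63.2% of the scanner's saturation value. Under quantile normalization the falls were larger, -0.63 and -1.02. The hairpins differed from each other by -0.12 (-0.24 to -0.00049), which did not pass the test (adjusted p = 0.113, limma), but did at -0.39 under quantile normalization (adjusted p = 0.00230).

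In the overexpression experiment Actb moved little. It read 8.86 and 8.89 in EGFP, 8.98 and 8.99 on the arrays labelled Srf, and 9.04 and 9.05 on those labelled Mkl1, with no overlap between EGFP and either treatment. The differences from EGFP were 0.11 (SE 0.05, adjusted p = 0.171, limma) and 0.17 (SE 0.05, adjusted p = 0.0534, limma), neither past the threshold. With Mkl1 the 95% interval of 0.05 to 0.29 on the log2 scale bounds the difference well under 2-fold. Both passed with a variance trend and robust fit (adjusted p = 0.0324 for the arrays labelled Srf and 0.00319 for Mkl1). The Mkl1 value also passed with the deposited log2 table, with the filter on all 12 arrays and without EGFP replicate 2 (adjusted p = 0.0485, 0.0408 and 0.0486), but it was 0.031 under quantile normalization (adjusted p = 0.715) and 0.15 under normexp (adjusted p = 0.111). In order, Actb was highest with Mkl1, then on the arrays labelled Srf, then in EGFP, shEGFP, shActb_1 and shActb_2. Of the neighbours in that order, only shEGFP and shActb_1 differed past the threshold.

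Actg1 (NM_009609), the other cytoplasmic isoform, read higher where Actb was lower, at each of its probes but by unequal amounts. Probe A_52_P72237 read 6.63 and 6.75 in shEGFP, 7.55 and 7.45 with shActb_1, and 7.76 and 7.79 with shActb_2. The brightest probe, A_55_P1970597, read 8.26 and 8.28, then 8.47 and 8.43, then 8.70 and 8.60. At all 5 probes both hairpin groups lay above shEGFP without overlap. With shActb_1 the differences ran from 0.18 to 0.81 (median 0.32) and 3 of 5 probes passed the test, against 5.29% of all probes called higher. With a spread taken only from the arrays compared, 2 of these 3 calls were lost, those of A_55_P1985984 (0.75, adjusted p = 0.0505) and A_55_P2008907 (0.32, adjusted p = 0.09996). With shActb_2 they ran from 0.38 to 1.08 (median 0.65) and 5 of 5 passed, against 21.7%.

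The probe with the smallest margin was A_55_P2008907, whose rise with shActb_1 (0.32, adjusted p = 0.0489, limma) failed the test without each of the 4 compared arrays in turn (0.28 to 0.36) and in several other alternatives. Under quantile normalization the shActb_2 values of all 5 probes were smaller, at 0.08 to 0.79. Those of A_55_P1970597 and A_55_P2008907 were 0.08 and 0.16 and did not pass (adjusted p = 0.377 and 0.172), and those of A_55_P1985984 and A_55_P2114993 were 0.54 and 0.34 and passed. The mean of the 5 probes, a summary added after the values were seen, was higher by 0.47 with shActb_1 (adjusted p = 0.00964, limma) and by 0.68 with shActb_2 (adjusted p = 0.000608, limma). The brightest probe reached 40.0% to 70.0% of saturation and A_52_P72237 reached 9.69% to 29.8%. Whether brightness sets the unequal sizes was not tested.

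Overexpression split the Actg1 probes. On the arrays labelled Mkl1, 3 of 5 passed, all higher, against 12.5% of all probes called higher: A_52_P72237 by 0.77, A_55_P1985984 by 0.71 and A_55_P2008907 by 0.61. The other two were higher by 0.15 and 0.17 and did not pass (adjusted p = 0.199 and 0.113, limma). With a spread taken only from the arrays compared, these 3 calls were lost (adjusted p = 0.0991, 0.0991 and 0.108). No Actg1 probe passed on the arrays labelled Srf, where 25.5% of all probes did, and the differences ran from -0.16 to 0.03. Compared directly, the arrays labelled Mkl1 were above those labelled Srf at the same 3 probes, by 0.83, 0.87 and 0.65 (adjusted p = 0.00113, 0.000703 and 0.00101, limma). At the brightest probe the order of level was shActb_2, shActb_1, Mkl1, the arrays labelled Srf, EGFP and shEGFP, and no neighbours in it differed past the threshold.

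**Figure D2:**
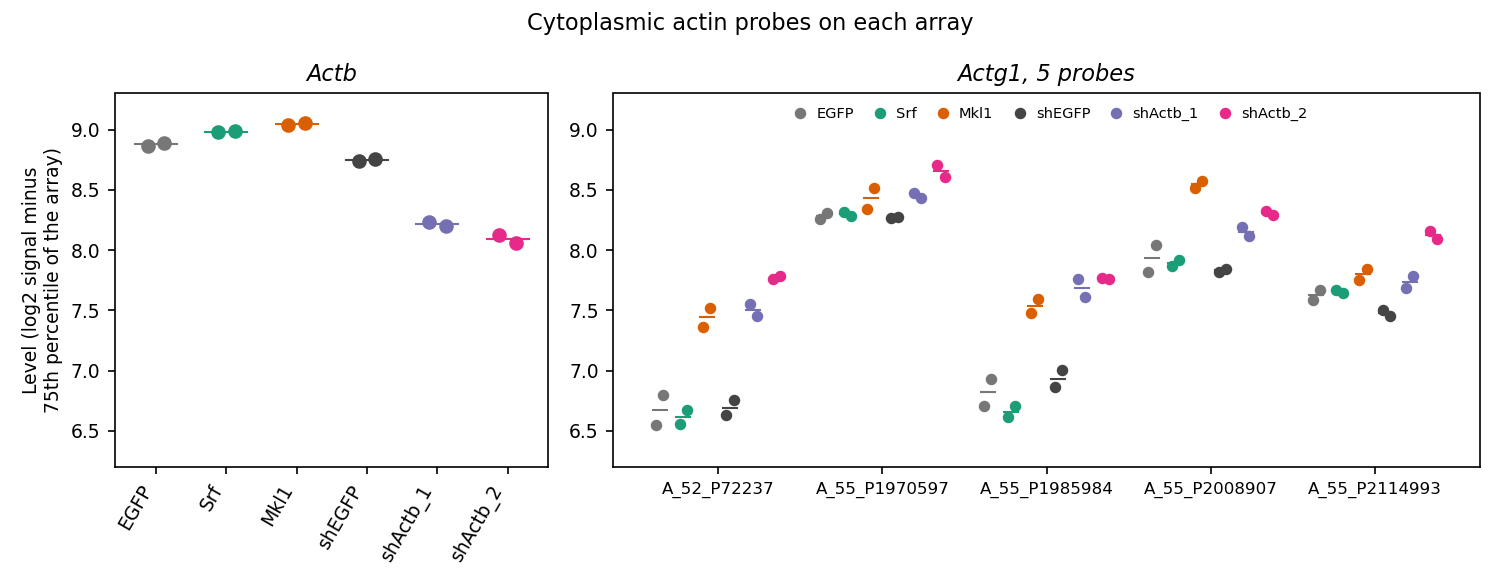
Levels of the Actb probe and the 5 Actg1 probes on each array (y axis, log2 signal minus the array's 75th percentile); points are arrays, short lines are group means, n = 2. Actb is lowest on the 4 hairpin arrays, between 8.06 and 8.23, while each Actg1 probe is higher there than on the shEGFP arrays.

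On the same array, the ratio of each Actg1 probe to Actb can be followed against its own control, which removes any common scaling of that array. With shActb_1 this log2 ratio was higher than in shEGFP by 0.71 to 1.35 over the 5 probes, and with shActb_2 by 1.04 to 1.74. On the arrays labelled Mkl1 the change ran from -0.03 to 0.60, and on those labelled Srf from -0.27 to -0.08. With the hairpins these ratios contain the change of their target Actb (-0.53 and -0.65), so part of their rise was fixed by the knockdown. The ratios show unequal change of the cytoplasmic isoforms and were not tested.

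The muscle isoforms carried the large differences. Acta1 and Acta2 were 16.6-fold to 33.0-fold higher with the hairpins and 26.8-fold and 122-fold higher with Mkl1, and all 4 muscle genes passed the test with a change over 2-fold in each of the 4 comparisons with a control. Among all probes tested the share higher past this test was 12.9% on the arrays labelled Srf, 12.5% for Mkl1, 5.29% for shActb_1 and 21.7% for shActb_2, and the share also over 2-fold higher was 3.29%, 1.29%, 0.486% and 1.73%. Actc1 entered the test only through the groups in which it was high, so its place in these counts was partly fixed by the filter. Under normexp background correction 2 of these changes stayed past the test but under 2-fold, with log2 changes of 0.59 for Acta1 on the arrays labelled Srf and 0.44 for Actc1 with shActb_1. In bulk RNA, more cells with muscle actins and more of these RNAs per cell cannot be told apart.

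Acta2 (A_52_P420504, NM_007392), the smooth muscle α-actin, had, of the actins measured in both groups, the largest rise on the Mkl1-labelled arrays and with shActb_1; Actc1 has only lower bounds there. It read -0.61 and -0.48 in EGFP, 2.75 and 2.91 on the arrays labelled Srf, and 6.39 and 6.38 on those labelled Mkl1. The groups were far apart in the order EGFP, Srf-labelled, Mkl1-labelled, with changes of 3.37 (SE 0.08, 10.4-fold) and 6.93 (SE 0.08, 122-fold) from EGFP. In the knockdown experiment it read 1.26 and 1.20 in shEGFP, 5.71 and 5.58 with shActb_1, and 6.26 and 6.28 with shActb_2. It rose by 4.42 (SE 0.08, adjusted p = 7.68e-07, limma) and 5.04 (SE 0.08, adjusted p = 2.80e-07, limma). Acta2 had 10 spots on the array, and the spots of 1 array had an SD of 0.04 to 0.25 on the log2 scale. That is a spread within arrays and does not measure the spread between them.

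Acta1 (A_51_P246854, NM_009606), the skeletal muscle isoform, separated the arrays labelled Mkl1 from those labelled Srf. It read -3.69 and -3.62 in EGFP, -2.64 and -2.48 on the arrays labelled Srf, and 1.08 and 1.09 on those labelled Mkl1. Acta1 rose 2.14-fold on the arrays labelled Srf (SE 0.12 on the log2 scale, adjusted p = 0.000648, limma) and 26.8-fold with Mkl1 (log2 change 4.74, SE 0.12, adjusted p = 3.37e-06, limma). With the hairpins Acta1 went from -3.11 and -3.48 in shEGFP to 0.82 and 0.69 with shActb_1 and 0.88 and 0.85 with shActb_2. Both hairpins thus brought Acta1 to nearly the same level, with changes of 4.05 and 4.16 (SE 0.12 each). Under normexp the rises of Acta1 were smaller, at 0.59 on the arrays labelled Srf, 3.63 with Mkl1, 3.26 with shActb_1 and 3.34 with shActb_2, all past the test. The direct difference of the hairpins was 0.11 (95% interval -0.17 to 0.39, adjusted p = 0.525, limma).

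Actg2 (A_55_P1963807, NM_009610), the smooth muscle γ-actin found mainly in gut, had another order. It read -4.47 and -4.20 in EGFP, 0.19 and 0.34 on the arrays labelled Srf, and 1.11 and 1.05 on those labelled Mkl1. Of the muscle actins measured in both groups it rose most on the arrays labelled Srf, by 4.60 (SE 0.11, adjusted p = 2.54e-06, limma), below its rise with Mkl1 of 5.41 (SE 0.11, adjusted p = 1.28e-06, limma). In the knockdown it read -3.97 and -4.04 in shEGFP, -1.13 and -1.37 with shActb_1, and 1.31 and 1.26 with shActb_2. The rise was 2.76 (SE 0.11, adjusted p = 4.03e-05, limma) with the first hairpin and 5.29 (SE 0.11, adjusted p = 1.32e-06, limma) with the second. Under normexp the rises of Actg2 were 3.26 on the arrays labelled Srf, 4.01 with Mkl1, 1.92 with shActb_1 and 4.25 with shActb_2. Acta2 then rose by 3.23 on the arrays labelled Srf, so that Actg2 no longer led there by more than the SE of 0.09.

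Actc1 (A_55_P2040951, NM_009608), the cardiac isoform, was not well above background on any EGFP or shEGFP array and was above it on all 8 treated arrays. Its levels were -6.96 and -7.05 in EGFP, -3.92 and -3.35 on the arrays labelled Srf, and -1.86 and -2.08 on those labelled Mkl1. They were -7.54 and -7.03 in shEGFP, -4.94 and -5.49 with shActb_1, and -2.46 and -2.54 with shActb_2. The control values are bounds, so the differences are given against the lowest signal well above background on each control array. Actc1 was at least 3.85-fold higher on the arrays labelled Srf (adjusted p = 0.000129, limma), at least 12.2-fold with Mkl1 (adjusted p = 7.16e-05), at least 2.05-fold with shActb_1 (adjusted p = 0.00314) and at least 13.4-fold with shActb_2 (adjusted p = 5.18e-05). These adjusted p values are of the fitted differences and not of the bounds, and Actc1 entered each of these tests only through the treated group. Under normexp the Actc1 differences were 1.14 on the arrays labelled Srf, 2.04 with Mkl1, 0.44 with shActb_1 and 1.72 with shActb_2. They lie below the log2 bounds of 1.94, 3.61, 1.03 and 3.75 in the same order. The bounds therefore hold for the processed signal and not under normexp. With a spread from the arrays compared only, the shActb_1 call was lost (adjusted p = 0.0535). Even on the Mkl1 arrays this spot reached no more than 0.0346% of saturation.

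**Figure D3:**
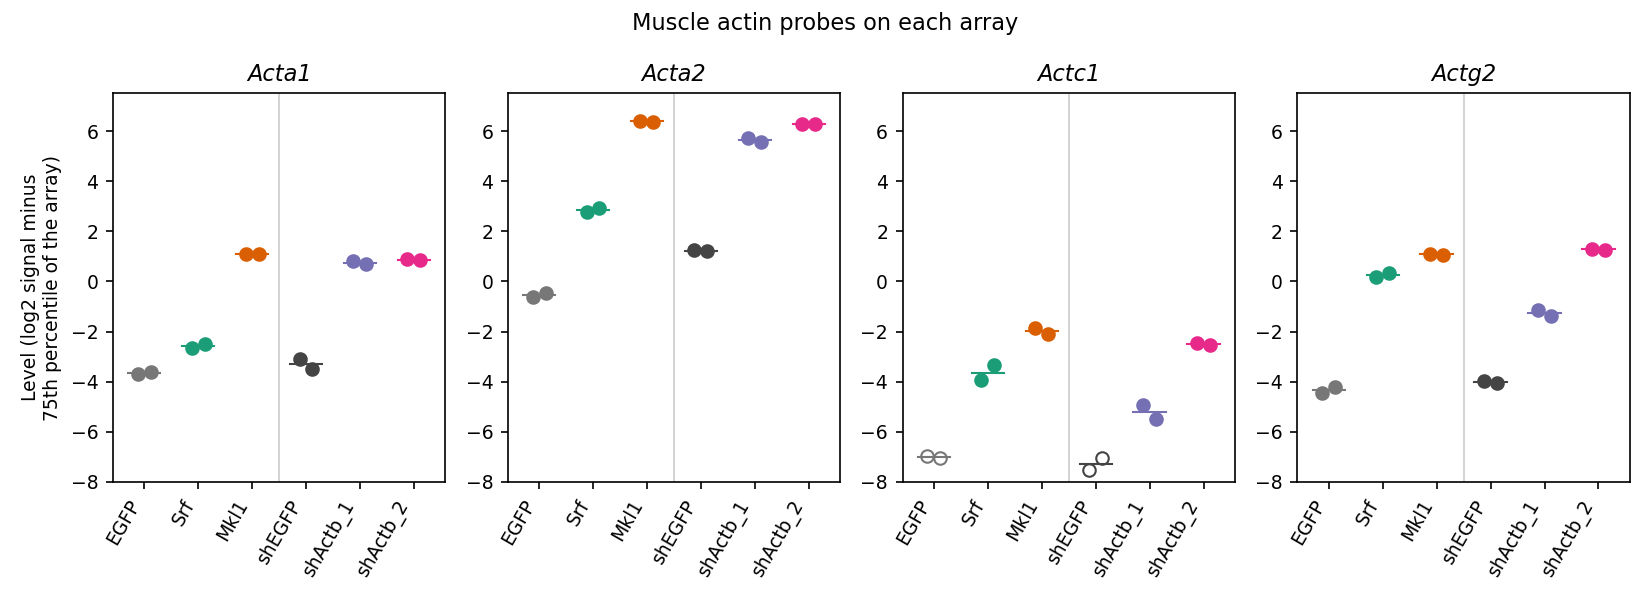
Levels of the 4 muscle actin probes on each array (y axis, log2 signal minus the array's 75th percentile); points are arrays, open points were not well above background, lines are group means, n = 2, and the grey line separates the experiments. Every treated array lies above both arrays of its control, and the steps between treatments differ from gene to gene.

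By gene, the count of changed actins with each treatment, 1 probe per gene, was 4 of 6 higher on the arrays labelled Srf, 4 of 6 higher with Mkl1, 4 of 6 higher and 1 lower with shActb_1, and 5 of 6 higher and 1 lower with shActb_2. The share of all probes called higher was 12.9%, 12.5%, 5.29% and 21.7% in that order. The gene called lower was Actb both times, against 4.12% of all probes lower with shActb_1 and 18.6% with shActb_2. The median change over the 6 genes was 2.24, 4.89, 2.41 and 4.47, against -0.036, -0.029, 0.0072 and -0.024 over all probes tested, in the same order of treatments. With Actc1 set at its lower bound on the processed signal the medians were 1.52, 4.18, 1.89 and 3.95. Comparisons within an experiment share their control arrays.

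**Figure D4:**
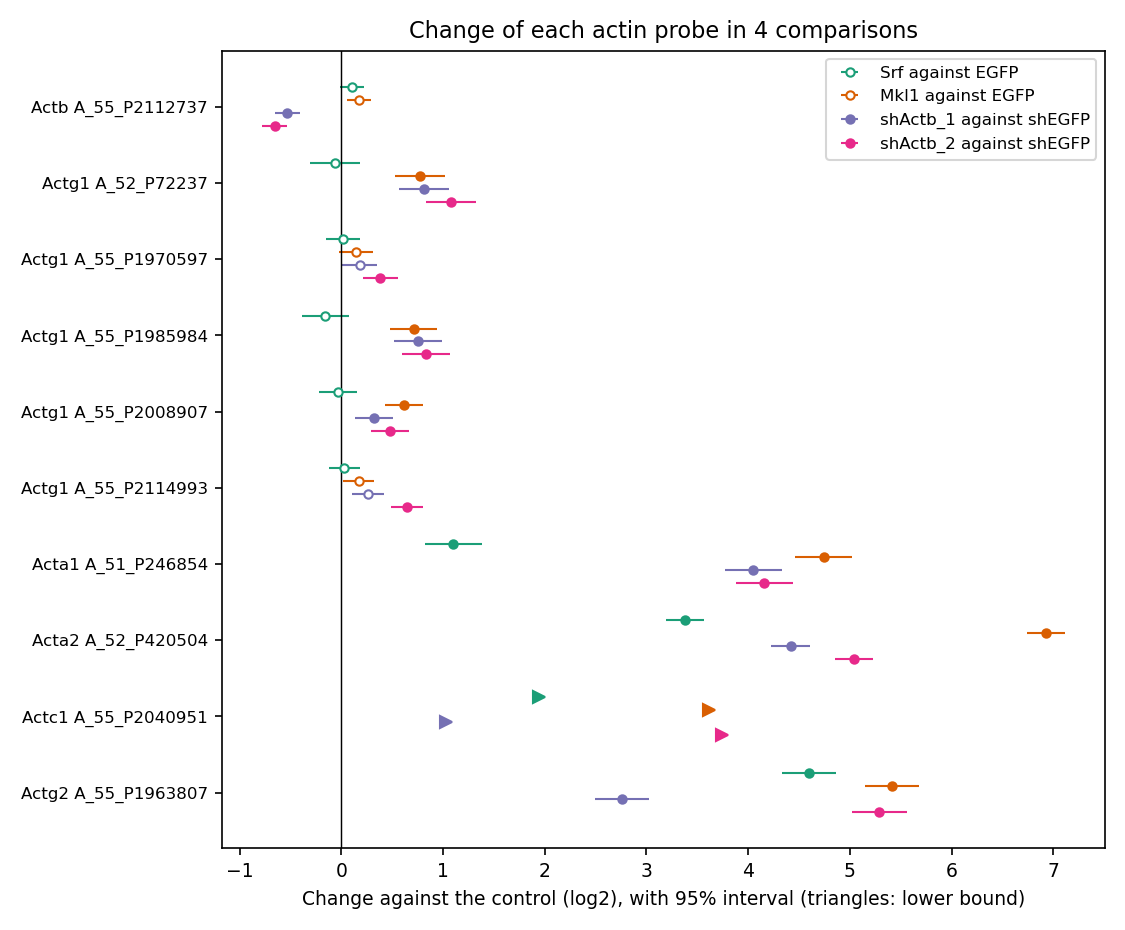
Change of each of the 10 actin probes from its control in 4 comparisons (x axis, log2; bars are 95% intervals; filled points pass an adjusted p under 0.05; triangles are lower bounds on the processed signal where the control was not well above background). The muscle probes lie at 1.03 or more, the Actg1 probes between -0.16 and 1.08, and Actb below 0 with the hairpins alone.

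Set directly against each other, the arrays labelled Mkl1 and Srf differed in all 4 muscle actins, each higher on those labelled Mkl1, where 14.5% of all probes were called higher. The difference was 3.64 (SE 0.12) in Acta1 and 3.55 (SE 0.08) in Acta2, that is, 12.5-fold and 11.7-fold. Under normexp the Acta1 difference was 3.03 and that of Acta2 3.52. It was smaller in Actc1 (1.67, SE 0.26, adjusted p = 0.00283, limma, and 0.90 under normexp) and in Actg2 (0.81, SE 0.11, adjusted p = 0.00188, limma). Actb showed no difference past the threshold (0.06, 95% interval -0.06 to 0.18, adjusted p = 0.430, limma). Actg2 differed by least of the muscle genes, but under normexp its 0.75 (SE 0.09) was near the 0.90 (SE 0.09) of Actc1.

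The hairpins differed along another split. The second hairpin exceeded the first in Actc1 by 2.71 (SE 0.25, adjusted p = 0.000564, limma, and 1.28 under normexp) and in Actg2 by 2.54 (SE 0.11, adjusted p = 8.52e-05, limma). The difference was 0.63 for Acta2 (SE 0.08, adjusted p = 0.00170, limma), and Acta1 did not pass. These 3 higher genes of 6 stand against 16.7% of all probes higher, and the 4 of 10 actin probes that passed in either direction stand against 32.1%. Of the Actg1 probes 1 of 5 passed (A_55_P2114993, 0.39, SE 0.07, adjusted p = 0.00498, limma), and it did not under quantile normalization (0.16, adjusted p = 0.118). The hairpins lay on different slides, so that hairpin and slide cannot be told apart.

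**Figure D5:**
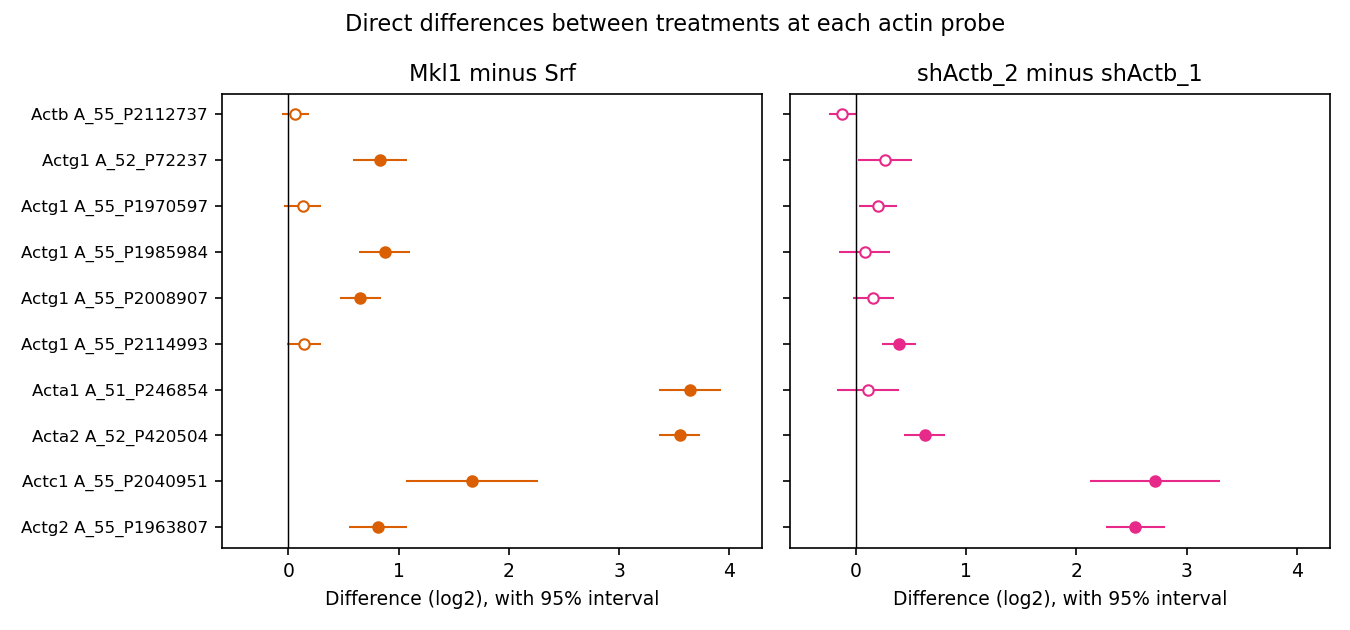
Direct differences at each actin probe between the arrays labelled Mkl1 and Srf (left) and between the hairpins (right) (x axis, log2; bars are 95% intervals; filled points pass an adjusted p under 0.05). On the left Acta1 and Acta2 lie farthest from 0, at 3.64 and 3.55, and on the right Actc1 and Actg2 do, at 2.71 and 2.54.

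The controls of the experiments show what a level set across experiments carries. Of the 5 actin genes tested between shEGFP and EGFP, 1 passed. Of all probes, 14128 of 37657 passed in either direction, and 16.9% were called higher. It was Acta2, which was higher in shEGFP by 1.77 (SE 0.08, adjusted p = 5.76e-05, limma), a 3.42-fold difference. Acta1 and Actg2 were higher in shEGFP by 0.36 and 0.33 (adjusted p = 0.0503 and 0.0580, limma), close to the threshold. The experiments differed in vector and in slide, which cannot be told apart here. With that limit, the highest treated groups of each experiment did not differ past the threshold in the muscle genes: Mkl1 against shActb_2 gave adjusted p values of 0.225 for Acta1, 0.357 for Acta2, 0.182 for Actc1 and 0.235 for Actg2 (limma). In order of level, Acta2 ran Mkl1, shActb_2, shActb_1, the arrays labelled Srf, shEGFP and EGFP, and Acta1 ran in the same order. Actg2 was highest with shActb_2, then Mkl1, the arrays labelled Srf, shActb_1, shEGFP and EGFP. Actc1 ran Mkl1, shActb_2, the arrays labelled Srf and shActb_1, with both controls near background. Besides the pair of Mkl1 and shActb_2, the neighbours that did not differ past the threshold were shActb_1 and shActb_2 for Acta1, and the controls for Acta1 and Actg2.

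Over the 12 arrays the levels of the muscle genes fell into pairs, as a description without a test, since arrays of a group and of a slide are not independent. Pearson's r was 0.973 between Acta1 and Acta2 and 0.977 between Actc1 and Actg2, though Actc1 was not well above background on 4 of the arrays and its values there are only bounds, against 0.753 to 0.862 across these pairs. Actb and Actg1 had r = -0.702. Of 16668 other named genes, Bok (0.991), Ankrd1 (0.983) and Dstn (0.979) were most like Acta2. Cnn1 (0.985), Abracl (0.982) and Dstn were most like Acta1. Tma16 (0.987), Ccnq and Idh3a were most like Actg2. Timm17a (0.983), Tbrg4 and Arfrp1 were nearest Actc1, with the same limit on its values. For Actb they were Rdh10, Klf2 (0.938) and Sfxn3.

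Proteins that handle actin monomers were followed as a list of 12, of which 11 were tested. These proteins bind unpolymerized actin and feed or sever filaments. With Mkl1, 8 rose and none fell, with shActb_1 4 rose, with shActb_2 7 rose, and 1 rose and 2 fell on the Srf-labelled arrays. The share of all probes called higher was 12.5%, 5.29%, 21.7% and 12.9% in that order, and the share called lower was 8.34%, 4.12%, 18.6% and 12.5%, so the counts on the Srf-labelled arrays do not stand apart from them. The list medians were 0.36, 0.21, 0.46 and 0.04 in that order, beside medians near 0 over all probes. Dstn (destrin, a depolymerizing factor) rose in all 4 comparisons, by 1.18 (SE 0.10) with Mkl1, 0.87 (SE 0.10) with shActb_1, 1.03 (SE 0.10) with shActb_2 and 0.41 (SE 0.10) on the arrays labelled Srf. Cap1 (a cyclase-associated protein that recycles monomers) rose by 1.08, 0.54 and 0.81 with Mkl1 and the hairpins, and differed by 0.16 on the arrays labelled Srf (adjusted p = 0.314, limma).

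Folding and modification of actin depends on the chaperonin CCT, prefoldin and a few enzymes, listed here as 19 genes. None changed by over 2-fold. With shActb_2, 11 rose and 2 fell, with Mkl1 9 rose, with shActb_1 2 rose, and 3 rose and 3 fell on the Srf-labelled arrays. All probes called higher were 21.7%, 12.5%, 5.29% and 12.9% in that order, and those called lower with shActb_2 and on the Srf-labelled arrays were 18.6% and 12.5%. Both counts on the Srf-labelled arrays are near these shares. Of the actin-related proteins, which share the actin fold and act in the Arp2/3 complex, dynactin and chromatin remodellers, 8 of 11 rose with shActb_2, 4 of 10 with Mkl1, 3 of 11 with shActb_1 and 3 of 11 on the arrays labelled Srf, where 1 fell. Of Srf and its cofactors 6 were tested. The count that rose was 1 on the arrays labelled Srf, 1 with Mkl1, 1 with shActb_1 and 3 with shActb_2, and 2 fell on the arrays labelled Srf. These small counts, and those of the actin-related proteins, stand beside the same shares of all probes called higher and lower. Srf itself at its brighter probe rose by 1.18 with Mkl1, 0.60 with shActb_1 and 0.75 with shActb_2.

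Partners of smooth muscle actin in the contractile apparatus were listed next. Of 13 tested, 9 rose and 1 fell with Mkl1, 11 rose with shActb_2, and 4 rose and 2 fell on the arrays labelled Srf, and of 12 tested with shActb_1, 8 rose. Over all probes 12.5%, 21.7%, 12.9% and 5.29% were called higher, in that order. Those called lower were 8.34% with Mkl1 and 12.5% on the arrays labelled Srf, so the counts that fell are near the background. Both of these shares moved up and down when an array was left out. Cnn1 (calponin, which binds actin filaments) rose by 6.56 (SE 0.07) with Mkl1, 4.23 (SE 0.07) with shActb_1, 4.76 (SE 0.07) with shActb_2 and 1.14 (SE 0.07) on the arrays labelled Srf. Myl9 (a myosin light chain) rose by 3.60, 3.12 and 4.33 with Mkl1, shActb_1 and shActb_2, and differed by 0.26 on the arrays labelled Srf (adjusted p = 0.0559, limma). Tagln (transgelin) rose by 2.32, 2.20, 2.53 and 2.34 in the same 4 comparisons. Myh11, the smooth muscle myosin heavy chain, was called higher with Mkl1, with shActb_2 and on the arrays labelled Srf but was not well above background in EGFP, shEGFP or shActb_1. It entered these tests only through the group in which it was high, so the filter fixed 1 of the genes that rose in each of the 3 counts. No other list gene that rose was below background on both control arrays. Synpo2 (an actin bundling protein) fell by 0.73 with Mkl1 and by 1.42 on the arrays labelled Srf, and rose by 0.78 with shActb_2.

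Partners of the striated isoforms Acta1 and Actc1 were also listed. Of 19 tested, 5 rose and 2 fell on the arrays labelled Srf, where 12.9% of all probes were called higher and 12.5% lower. With Mkl1, 1 of 19 rose, a share below the 12.5% of all probes called higher, and 3 fell, against 8.34% called lower. With shActb_1, 3 of 14 rose, against 5.29% of all probes. With shActb_2, 3 of 15 rose and 3 fell, against 21.7% higher and 18.6% lower, which is near that background. Tnnt3 (fast skeletal troponin T) rose by 3.50 (SE 0.13) on the arrays labelled Srf, 1.50 with Mkl1, 2.12 with shActb_1 and 2.60 with shActb_2. Tnnc1 (slow and cardiac troponin C) rose by 2.15 on the arrays labelled Srf and did not pass with Mkl1 (adjusted p = 0.997, limma). Tnni2 (fast troponin I) rose by 1.51 on the arrays labelled Srf, 0.65 with shActb_1 and 0.32 with shActb_2. Myl1 (a skeletal myosin light chain) fell by 1.22 with Mkl1 and rose by 0.85 with shActb_2.

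Markers of other cell types were set beside the muscle actins, as signals relative to the 75th percentile summed over each list. The 6 smooth muscle markers summed to 15.2 to 16.7 in EGFP, 37.5 to 42.2 on the arrays labelled Srf and 76.1 to 82.3 with Mkl1. They summed to 13.9 to 16.5 in shEGFP, 56.2 to 57.0 with shActb_1 and 72.5 to 75.8 with shActb_2. The sums ran in the order of Acta2 within each experiment. On the arrays labelled Srf most of the sum was Tagln (mean level 4.95, against 2.61 in EGFP), while Smtn went from 3.10 in EGFP to 2.95 and Synpo2 from -0.46 to -1.88. This list holds Cnn1, Tagln, Myh11 and Synpo2, and Lmod1 was not well above background on both arrays of any group. The 6 skeletal muscle markers summed to 0.453 to 0.545 in EGFP, 1.21 to 1.30 with Mkl1 and 4.56 to 5.04 on the arrays labelled Srf, and to 0.299 to 0.303 in shEGFP, 0.897 to 0.964 with shActb_1 and 1.24 to 1.28 with shActb_2. Most of these sums was Tnnt3 (mean level 2.24 on the arrays labelled Srf). Myog and Myf5 were not well above background on any array, Ckm was on 1 array in each group of the knockdown experiment, and Myod1 was on both arrays of those groups. The 5 cardiac markers summed to 4.91 to 4.97 in EGFP, 5.67 to 6.47 with Mkl1 and 9.106 to 9.303 on the arrays labelled Srf, and to 4.36 to 4.51 in shEGFP, 5.57 to 5.78 with shActb_1 and 4.08 to 4.58 with shActb_2, which overlaps shEGFP. Most of these sums was Tnnt2, with mean levels of 2.18 in EGFP and 2.99 on the arrays labelled Srf. The cardiac markers did not move together, since between these groups Nkx2-5 went from -3.63 to 0.0058, Myh6 from -3.44 to -3.86 and Tnni3 from -2.27 to -2.96, and Nppa was not well above background in EGFP. Of 7 fibroblast markers, 6 or 7 were well above background on both arrays in every group. The fibroblast sum was lower in the treated groups, at 170.5 to 171.4 in EGFP, 97.7 to 100.8 on the arrays labelled Srf and 100.5 to 120.4 with Mkl1, and at 133.8 to 142.4 in shEGFP, 103.3 to 113.9 with shActb_1 and 81.4 to 84.5 with shActb_2. Most of it was Col1a2 and Col3a1, and other members went the other way. On the arrays labelled Srf 4 of the 7 had higher means than in EGFP, namely Col1a1 (3.19 to 3.62), Dcn (1.74 to 2.59), Lum (not well above background in EGFP) and Thy1 (-3.69 to -2.20). Thy1 was higher in every treated group, at -0.60 with Mkl1, and at -1.47 and -0.20 with the hairpins against -3.10 in shEGFP. The sum of 6 neuronal markers was 9.65 to 10.4 in EGFP and at most 5.60 on the arrays labelled Srf and Mkl1, and 9.60 to 9.93 in shEGFP and at most 6.49 with the hairpins. Stmn2 was the brightest of them in both controls (2.41 and 2.12), and Tubb3 was higher on the arrays labelled Srf (0.22) than in EGFP (-1.31). The 12 progenitor markers summed to 280.5 to 298.3 in EGFP, 260.0 to 268.5 on the arrays labelled Srf and 324.1 to 337.8 with Mkl1, and to 253.9 to 257.9 in shEGFP, 274.6 to 277.7 with shActb_1 and 366.0 to 368.0 with shActb_2, mostly Vim. The members did not move together. Sox2 went from 1.52 in EGFP to 0.63 with Mkl1, and from 1.19 in shEGFP to 0.18 and 0.83 with the hairpins. Slc1a3 went from 1.67 to 0.30 and from 1.67 to 0.37 and 0.56 in the same groups. Nes was higher in them, from 3.96 to 5.12 and from 4.18 to 4.65 and 4.98, and so was Sox9. The 4 astrocyte markers summed to 2.82 to 3.09 in EGFP, 4.816 to 4.997 on the arrays labelled Srf and 2.19 to 2.62 with Mkl1, and to 3.63 to 3.75 in shEGFP and 1.86 to 2.40 with the hairpins, mostly Aldh1l1. The 4 pluripotency markers summed to 0.948 to 1.09 in EGFP, 2.88 to 3.33 on the arrays labelled Srf and 0.734 to 0.770 with Mkl1, and to 0.835 to 0.988 over the knockdown experiment. On the arrays labelled Srf most of it was Esrrb (1.31, against -1.22 in EGFP), and Pou5f1 read -4.54 there and -4.20 in EGFP. Nanog went from -1.02 in EGFP to -1.92 with Mkl1, and from -0.78 in shEGFP to -1.57 and -1.42 with the hairpins. Esrrb went the other way with the hairpins, from -1.805 in shEGFP to -1.03 and -0.90. The part of these markers in the actin differences was not tested.

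Signal shared between actin probes was not separated. The actin coding regions are alike, where each probe lies in its transcript was not determined, and how much of a probe's signal came from RNA of another actin gene was not tested. The opposite directions of Actb and Actg1 with the hairpins, and the unequal order of the muscle genes across treatments, are measurements at these probes.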

How the data were processed

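Processed signal intensities were deposited by the authors as scanner output. Per the file headers, Feature Extraction 11.5.1.1 had subtracted background, and no normalization between arrays had been applied. The arrays held 62976 features, which fits the 8 × 60K format of the methods and not the format in the labels. A table of log2 values was deposited by the authors as well. Its columns (medians -4.09 to -3.68) equal log2 of the scanner signal minus a constant per array, within 0.01 for at least 99.966% of probes, so its scale and direction are settled and it is not centred by gene. Of its 55819 rows, 138 are not array probes.

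From the processed signal, control and outlier-flagged spots were left out, spots of a probe were averaged, log2 was taken and the 75th percentile of each array (signal 843 to 1150) was subtracted. Probes were named by RefSeq accession from a GRCm38.p6 table, which named 28026 of 55681 (50.3%). The design used another build, so no gene coordinates are given beside the promoter windows, which come from RefSeq. Of the 6 genes, 4 matched the promoter table.

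Samples were grouped by title into 6 groups of 2. limma 3.58.1 (lmFit, eBayes) in R 4.3.3 fitted all 12 arrays with 1 mean per group, because a spread from 2 arrays alone is imprecise. A probe entered a comparison if both arrays of at least 1 group in it had it well above background. Calls were those with a two-sided Benjamini-Hochberg adjusted p under 0.05 over all of them. Each gene was counted by its probe with the highest mean signal. The methods name percentile shifts and exclusion of low signals, and no test. The number of arrays limits the precision. On simulated data for Mkl1 against EGFP (35697 probes, 200 changed), the fit found 55% of 2-fold and 85% of 4-fold changes, with 5.41% false calls. For shActb_1 (36175 probes) the values were 52%, 83% and 5.59%. The data held more calls, 7435 for Mkl1 and 3412 for shActb_1. The adjusted p depends on how many probes change, so these rates may not hold for the data.

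Named genes were the actins, Srf and Mkl1, for each actin the 3 genes with the highest Pearson r over the arrays (those for Actg1 are not reported here), and from each list at most 5 genes that passed with over 2-fold change in a treatment comparison. Members of the cell type marker lists that carry or oppose a summed level are named outside this rule, chosen after their values were seen. The members, lists and tests were chosen with earlier results of these data known. Alternatives were normexp background correction (offset 50, on the median spot signal, since the files used here hold no column of the planned mean signal), quantile normalization, the deposited log2 table, no filter, all 12 arrays or the 20th percentile as filter on dim probes, the compared arrays only, a replicate block, a variance trend with robust fit, a 2-fold criterion, all probes of a gene, and each array left out. Duplicates of a group correlated at r = 0.993 to 0.998.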

Additional observations from a re-analysis of the deposited data

Results flagged for a closer look

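At 4 of 10 actin probes the hairpin groups differed in a direct limma test, where 32.1% of all probes did, each value being shActb_2 minus shActb_1 on the log2 scale. The difference was 2.71 (SE 0.25, adjusted p = 0.000564) at the Actc1 probe A_55_P2040951, higher on 2 of 2 arrays. It was 2.54 (SE 0.11, adjusted p = 8.52e-05) at the Actg2 probe A_55_P1963807, also higher on 2 of 2 arrays. It was 0.625 (SE 0.0806, adjusted p = 0.00170) at the Acta2 probe A_52_P420504. It was 0.39 (SE 0.067, adjusted p = 0.00498) at the Actg1 probe A_55_P2114993. Hairpin and slide cannot be told apart in these values, because shActb_2 was alone on its slide.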

How the results depend on the processing

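The count of actin genes called kept within 1.5 times its value in all alternatives run for the Srf, Mkl1, shActb_1, shActb_2 and Mkl1 against Srf comparisons. Between the hairpins 3 genes were called, and 5 with a variance trend and robust fit. Between the controls 1 was called, 2 with normexp correction and with the deposited log2 table, 3 with quantile normalization and with probes above background on all 12 arrays, 4 with the variance trend, and 1 to 2 with an array left out (2 without EGFP replicate 2 and 2 without shEGFP replicate 2). Of the single probe values in the alternatives, 878 kept direction and side of the threshold, 26 newly passed, 35 no longer passed and 21 changed sign. Those that changed sign lay between -0.15 and 0.21, and 1 of them passed the test. The cause was not tested.

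At Actg1 probes in Srf against EGFP these were A_55_P1970597 (-0.021 with normexp and -0.00097 with quantile normalization) and, over the leave-one-out fits, A_52_P72237 (-0.19 to 0.066), A_55_P1970597 (-0.012 to 0.044), A_55_P2008907 (-0.15 to 0.074) and A_55_P2114993 (-0.013 to 0.070). Under quantile normalization they were also A_55_P1970597 (-0.028), A_55_P1985984 (-0.15) and A_55_P2008907 (-0.10) between the hairpins, and Actb (-0.037) in Mkl1 against Srf. In shEGFP against EGFP, quantile normalization gave A_55_P1970597 0.21 (adjusted p = 0.0414, past the threshold), A_55_P2008907 0.087, A_55_P2114993 0.035 and Actb 0.13, and normexp gave Actg2 -0.025. In that comparison the leave-one-out ranges that span 0 were -0.11 to 0.15 (A_52_P72237), -0.041 to 0.015 (A_55_P1970597), -0.00021 to 0.23 (A_55_P1985984) and -0.21 to 0.011 (A_55_P2008907).

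With the replicate number as a block, the counts of actin genes called were 4, 4, 5 and 6 for Srf, Mkl1, shActb_1 and shActb_2, as without it, and only the call of A_55_P2008907 with shActb_1 was lost (0.32, adjusted p = 0.0580). The numbers were not taken as pairs, because deviations of same-numbered arrays correlated at -0.0023 to 0.26, not over 0.1 in every comparison, and a shared origin was not tested. Slide as a block was not run, since it leaves comparisons within a slide as they are and could not be fitted for shActb_2 against shEGFP. The background moved more than the actins. With the spread of the compared arrays only, calls over all probes went from 7435 to 126 for Mkl1, from 9043 to 2344 for Srf, from 3412 to 1231 for shActb_1 and from 14128 to 5015 between the controls, and without EGFP replicate 2 the Mkl1 calls were 11299. Those for shActb_2 went from 14586 to 8583 without shActb_2 replicate 2, and those between the hairpins from 11368 to 5660 without shActb_1 replicate 1. With 1 array left out in turn, 21.7% for shActb_2 became 12.4% to 15.9%, 16.7% between the hairpins 6.76% to 9.94%, 5.29% for shActb_1 1.52% to 2.36%, 12.5% for Mkl1 4.49% to 16%, 12.9% for Srf 6.96% to 15.1%, 14.5% for Mkl1 against Srf 7.95% to 8.91%, and 16.9% between the controls 9.11% to 16.2%. Without a filter on dim probes the median of all probes was -0.14 for Srf, -0.13 for Mkl1 and -0.19 between the controls. Actc1 could not be tested with the filter on all 12 arrays. Signal near background limits Actc1 in particular.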
